A study of Mus musculus with 5 samples.

Results

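The genes described here are 10 genes of fat cell formation and fat metabolism, namely Pparg, Cebpa, Cebpb, Cebpd, Lpl, Fabp4, Angptl4, Plin2, Adipoq and Ucp1. They were chosen by symbol with earlier results of these data known, as were the gene lists below. The shares of members called, set beside those of all genes, are therefore descriptions only. Every array probe whose RefSeq accession maps to one of the symbols was kept. All 10 genes had a probe, and Lpl had 2, which gave 11 probes of the 55681 on the array and 10 genes of the 20018 that could be named. The arrays measured total RNA of mouse tumour cell lines grown out of soft tissue sarcomas. All lines, those behind the control arrays included, carry doxycycline-inducible alleles of EWS/ATF1, the fusion protein known from clear cell sarcoma, and their strain background mixes C57/BL6, 129 and ICR. There was 1 array for each of 5 groups, a control, a low doxycycline dose and a high dose at 3 h, and a control and a high dose at 48 h. The sources used here do not give the doxycycline concentrations, whether control cultures had any of it, or which line, or how many lines, stood behind an array. Lines may therefore differ between the arrays compared, and since each group is 1 array, no difference below has a replicate check or a p-value.

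PPARγ, made from Pparg, is the nuclear receptor that drives fat cell formation. In cultured preadipocytes C/EBPβ and C/EBPδ come first, PPARγ and C/EBPα follow and maintain each other, and together they switch on genes for lipid uptake and storage. Lipoprotein lipase (Lpl) releases fatty acids from lipoproteins, Angptl4 inhibits that lipase, Fabp4 carries fatty acids inside the cell and Plin2 coats lipid droplets. Adiponectin (Adipoq) is a hormone of mature white fat cells, and Ucp1 is the mitochondrial uncoupling protein by which brown and beige fat cells make heat.

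Levels are log2 signals minus the 75th percentile of the same array, so 0 is the level that 75% of the probes on that array did not exceed, and levels of different probes are not compared. A probe was taken as measured where the scanner software marked a share of at least 0.5 of its spots as well above background. The error given is the scanner's own estimate for a spot, which leaves out all variation between cultures. For a difference between arrays of a bright probe with a single spot that error was 0.20 on the log2 scale. A difference is called higher or lower where it reached 2-fold, a log2 difference of 1, with the probe above background on both arrays. The signal at the 75th percentile ran from 420 on the 48 h high dose array to 725 on the 3 h control, and between 30884 and 33427 probes per array were above background. Fos, the gene that the study names as a target of the fusion, had levels of -2.22 and -2.22 on the 3 h and 48 h controls, -0.49 at the low dose, and 2.18 and 2.86 at the high dose at 3 h and 48 h.

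At 48 h on the high dose, Cebpa, Cebpd, Lpl, Angptl4 and Plin2 were lower than on the 48 h control by 2-fold or more, and Ucp1 was 102-fold higher. These 6 are of 8 members measured on both arrays, in a comparison where 20.0% of 13739 named genes were called (9.94% higher and 10.1% lower). Fabp4 was below background on the 48 h high dose array, at least 12.7-fold lower. At 3 h on the high dose 2 of 9 measured members were called, Angptl4 lower and Ucp1 higher, where 3.30% of genes were called (1.85% higher and 1.45% lower). At the low dose 0 of 9 were called, where 1.37% of genes were (0.789% higher and 0.583% lower). The controls were not alike, since 4 of 9 members (Cebpa, Cebpb, Lpl and Angptl4) were higher by 2-fold or more on the 48 h control than on the 3 h control, where 3.87% of genes were called (2.50% higher and 1.36% lower). Against both controls at once the 48 h high dose array was lower for Cebpa, Cebpd, Lpl and Angptl4 and higher for Ucp1, where 7.09% of genes were lower and 7.41% higher by the same rule.

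**Figure D1:**
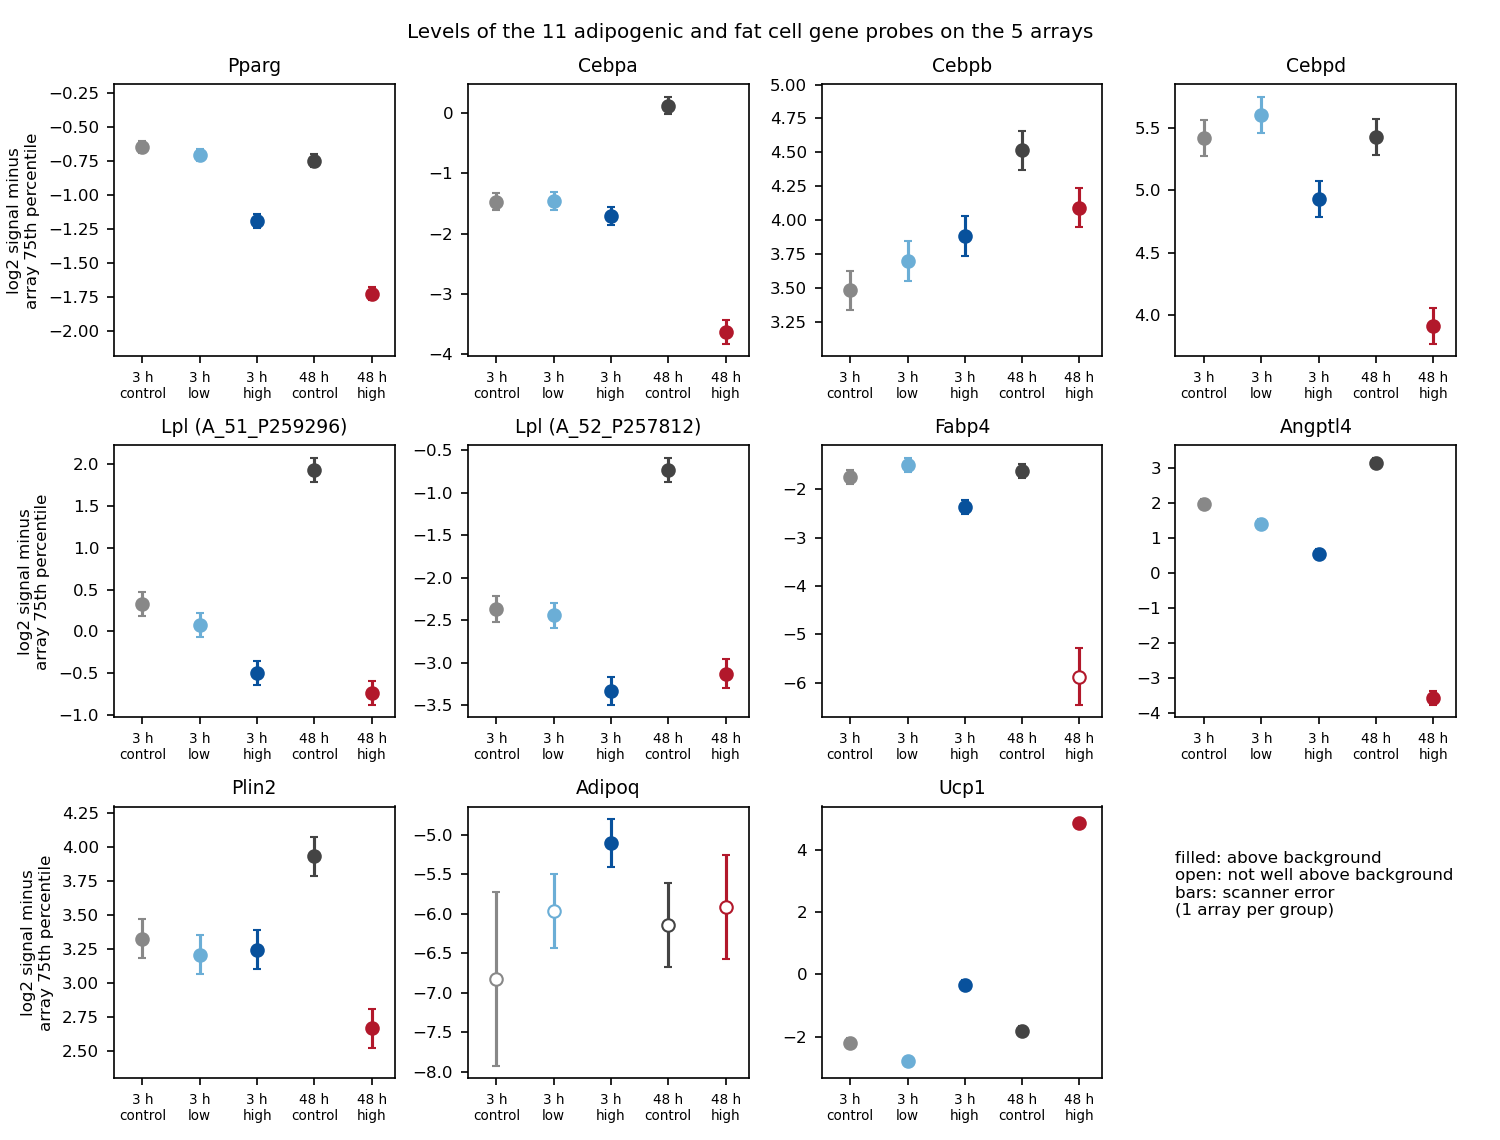
Levels of the 11 probes on the 5 arrays, as log2 signal minus the array's 75th percentile, 1 array per group. Bars give the scanner's error and open circles mark probes not well above background. The 48 h high dose array (red) is the lowest for Pparg, Cebpa, Cebpd, Fabp4, Angptl4, Plin2 and the brighter Lpl probe, and the highest for Ucp1.

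The transcription factors were read first in order of the cascade. Cebpb, whose product acts early, had levels of 3.49, 3.70 and 3.88 at 3 h (control, low dose, high dose), 4.52 on the 48 h control and 4.09 on the 48 h high dose array. It was lowest on the 3 h control and highest on the 48 h control, and the low and high dose arrays at 3 h differed by 0.18, within the scanner error. The high dose differed from the control of its own time by 0.40 at 3 h and by -0.42 at 48 h, both under 2-fold and opposite in sign. The difference between the controls, 1.03 or 2.04-fold, was larger than either.

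Cebpd, which encodes the other early factor, had levels of 5.42, 5.60 and 4.93 at 3 h (control, low dose, high dose), 5.43 on the 48 h control and 3.92 on the 48 h high dose array. The controls differed by 0.01 and the low dose lay within the scanner error of both, so the high dose arrays were the 2 lowest and stood apart from the other 3. The high dose was 0.49 below its control at 3 h, under 2-fold, and 2.85-fold lower at 48 h (log2 difference -1.51, scanner error 0.20). Against the 3 h control it was 2.84-fold lower.

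Pparg was read from 10 spots of the same probe, of which at least 9 were usable on each array. Its levels were -0.65, -0.70 and -1.19 at 3 h (control, low dose, high dose), -0.75 on the 48 h control and -1.72 on the 48 h high dose array. The order was the same as for Cebpd in that the high dose arrays were the 2 lowest. The other 3 arrays lay within 0.10 of each other, beside an SD between spots of 0.04 to 0.07 on those arrays. At 3 h the high dose differed from the control by -0.54 on the log2 scale, which is 1.46-fold and under the 2-fold limit. The SDs between single spots on the 2 arrays combined to 0.13, a spread wider than the error of the spot means. At 48 h the difference was -0.98, with a combined SD between single spots of 0.16, or 1.97-fold, which narrowly misses the limit. Set against the 3 h control it was -1.08 and would be called lower, so the call for Pparg at 48 h turns on which control is used.

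Cebpa, which encodes the factor that acts beside PPARγ, had levels of -1.47, -1.45 and -1.70 at 3 h (control, low dose, high dose). The level was 0.13 on the 48 h control and -3.64 on the 48 h high dose array. The 3 h control and low dose arrays differed by 0.01, within the scanner error, while the 48 h control stood above and the 48 h high dose array below all others. The high dose was 13.6-fold lower than the control at 48 h (log2 difference -3.76, scanner error 0.24). Under normexp, another background correction, it was -2.44. Part of that distance lies in the 48 h control, which was 3.02-fold higher than the 3 h control, and against the 3 h control the difference was -2.17. At 3 h the high dose difference was -0.24 and the low dose difference 0.01. Among the 4 factors the difference at 48 h therefore ran from -0.42 for Cebpb to -3.76 for Cebpa.

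Of the genes of lipid handling, Angptl4, the secreted inhibitor of lipoprotein lipase and a well known PPAR target, differed most. Its levels were 1.99 on the 3 h control, 1.40 at the low dose, 0.56 at the high dose, 3.16 on the 48 h control and -3.57 on the 48 h high dose array. Each neighbouring pair in this order of levels was further apart than the scanner error. At 3 h the low dose lay 0.58 below the control, under 2-fold, and the high dose was 2.69-fold lower (log2 difference -1.43, scanner error 0.20). At 48 h the high dose was 106-fold lower than its control (log2 difference -6.72, scanner error 0.24, and -5.28 under normexp), which ranked 2 from the lowest of 13739 genes measured on both arrays. Against the 3 h control the 48 h high dose array was 47.0-fold lower, and the controls themselves differed 2.25-fold.

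Lpl, whose product Angptl4 inhibits, was read by 2 probes. The brighter probe, A_51_P259296, had levels of 0.32, 0.07 and -0.50 at 3 h (control, low dose, high dose), 1.93 on the 48 h control and -0.74 on the 48 h high dose array. The dimmer probe, A_52_P257812, had levels of -2.36, -2.44, -3.33, -0.74 and -3.13 on the same arrays in that order. On both probes the 48 h control stood well above the rest and the high dose arrays were the 2 lowest, and at 48 h against 3 h the high dose arrays differed by -0.24 and 0.20 on the brighter and dimmer probe. The high dose was lower than the control at 48 h by log2 differences of -2.67 and -2.39, or 6.38-fold and 5.25-fold. The controls differed by 1.61 and 1.63, so against the 3 h control the 48 h high dose differences shrank to -1.06 and -0.77, and the dimmer probe was then under 2-fold. At 3 h the high dose differences were -0.82 and -0.97, both under 2-fold.

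Fabp4, the fatty acid carrier, had levels of -1.75, -1.49 and -2.36 at 3 h (control, low dose, high dose) and -1.61 on the 48 h control. On the 48 h high dose array it was not well above background, at -5.88. The controls differed by 0.13, within the scanner error. Set against the lowest signal above background on that array, the 48 h high dose level was at least 12.7-fold lower than the 48 h control, at least 11.6-fold lower than the 3 h control and at least 7.54-fold lower than the 3 h high dose. Some probes there that were not well above background had higher signals than that lowest one, so these bounds are not strict limits. At 3 h the high dose difference was -0.62, under 2-fold.

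Plin2, the lipid droplet coat protein found in most cell types, varied less. It had levels of 3.32, 3.21 and 3.24 at 3 h (control, low dose, high dose), 3.93 on the 48 h control and 2.66 on the 48 h high dose array. The 3 h arrays lay within the scanner error of each other. The high dose was 2.40-fold lower at 48 h (log2 difference -1.27), but -0.66 against the 3 h control, which is under 2-fold.

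Adipoq, the hormone of mature fat cells, had levels of -6.83, -5.96, -5.10, -6.14 and -5.92 at 3 h (control, low dose, high dose) and at 48 h (control, high dose). It was above background on the 3 h high dose array alone, and its scanner errors were the largest of the 11 probes on each array. The bounds there were at least 1.06-fold higher than the 3 h control and at least 1.82-fold higher than the low dose, neither of which reaches 2-fold.

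Ucp1 was the only member called higher on the high dose against the control of its time. Its levels were -2.21 on the 3 h control, -2.79 at the low dose, -0.33 at the high dose, -1.81 on the 48 h control and 4.86 on the 48 h high dose array, all above background. The high dose arrays were the 2 highest and the low dose array was the lowest. The high dose was 3.67-fold higher than the control at 3 h (log2 difference 1.88, scanner error 0.21) and 5.51-fold higher than the low dose. The low dose was 0.58 below the control, under 2-fold. At 48 h the high dose was 102-fold higher than its control (log2 difference 6.67, scanner error 0.21), ranking 5 from the highest of 13739 genes. The controls differed by 0.40, and against the 3 h control the 48 h high dose array was 134-fold higher. Between 3 h and 48 h on the high dose the level was 36.6-fold higher at the later time.

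ATF1 binds the cAMP response element, whose core letters are TGACG, and the promoters of the members in the RefSeq promoter table (build GRCm38.p6, 250 bases before to 50 bases after the gene's start) were searched for those letters and for the whole palindrome TGACGTCA. The table held 6 of the 10 members, namely Pparg, Cebpa, Cebpb, Plin2, Adipoq and Ucp1, with 8 promoters. The core, searched as TGACG and as its reverse complement CGTCA, was found in the promoters of Ucp1 and Cebpb, shown next with the matched letters in capitals, and the palindrome in none. The palindrome contains both core strings.
Ucp1: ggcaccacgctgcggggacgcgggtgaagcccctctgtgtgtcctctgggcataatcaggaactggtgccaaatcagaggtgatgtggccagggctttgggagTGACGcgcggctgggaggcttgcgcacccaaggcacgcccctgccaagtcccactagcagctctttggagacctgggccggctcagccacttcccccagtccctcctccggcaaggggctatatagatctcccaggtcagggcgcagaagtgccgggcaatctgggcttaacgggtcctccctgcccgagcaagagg
Cebpb: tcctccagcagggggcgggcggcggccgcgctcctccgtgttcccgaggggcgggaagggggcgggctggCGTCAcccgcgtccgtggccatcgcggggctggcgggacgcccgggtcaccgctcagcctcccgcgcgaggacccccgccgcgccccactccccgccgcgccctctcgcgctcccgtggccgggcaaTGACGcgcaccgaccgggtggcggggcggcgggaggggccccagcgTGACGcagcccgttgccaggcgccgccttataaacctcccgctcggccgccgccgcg
The Ucp1 promoter (chr8:83290098-83290397, plus strand) held 1 match, starting 147 bases before the gene's start. The Cebpb promoter (chr2:167688665-167688964, plus strand) held 3, starting 180, 53 and 7 bases before the start. The core occurred in 2 of the 8 member promoters and in 20.8% of all 32851 promoters of the same length, and the palindrome in 1.79% of all. Of the 2 genes that hold the core, Ucp1 was 102-fold higher and Cebpb differed by -0.42 on the log2 scale at 48 h. A link between the core and these differences was not tested. The CCAAT box (CCAAT or its reverse complement ATTGG), from which the C/EBP family has only its name here, occurred in 37.4% of promoters. It was found 3 times before the start of Adipoq, 1 time before that of Plin2 and in 2 of the 3 Pparg promoters. The Cebpa, Cebpb and Ucp1 promoters did not hold it. Binding of C/EBP proteins to these letters was not tested.

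Taken over the members, the median difference was -0.06 for the low dose at 3 h, beside 0.02 over all genes. It was -0.49 for the high dose at 3 h, beside -0.01 over all genes, and 7 of the 9 differences were negative. High against low dose at 3 h called only Ucp1 among the 9 members, where 2.18% of all genes were called (1.27% higher and 0.913% lower). The median for the high dose at 48 h was -1.39, beside 0.05 over all genes, and Pparg and Cebpb were the members that stayed under 2-fold there. Between the high dose arrays of 48 h and 3 h, 4 of 8 members were called, Ucp1 higher and Cebpa, Cebpd and Angptl4 lower, where 17.6% of genes were called (9.17% higher and 8.38% lower). Cebpa lost that call under normexp, at -0.91. Set against the other control, the 48 h high dose array called 6 members (Ucp1 higher; Pparg, Cebpa, Cebpd, Lpl and Angptl4 lower) where 18.3% of genes were called (9.44% higher and 8.85% lower). The 3 h high dose array against the 48 h control called Ucp1 higher and Cebpa, Lpl and Angptl4 lower, where 5.05% of genes were called (1.96% higher and 3.09% lower). The low dose array against the 48 h control called the same 3 genes lower and 0 higher, where 5.34% of genes were called (2.11% higher and 3.24% lower). Against both controls at once, the high dose at 3 h was higher for Ucp1 and lower for Angptl4, where 0.832% and 0.445% of genes were. The high dose comparisons at 3 h and 48 h share no array, but each control also enters the comparison of the controls.

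**Figure D2:**
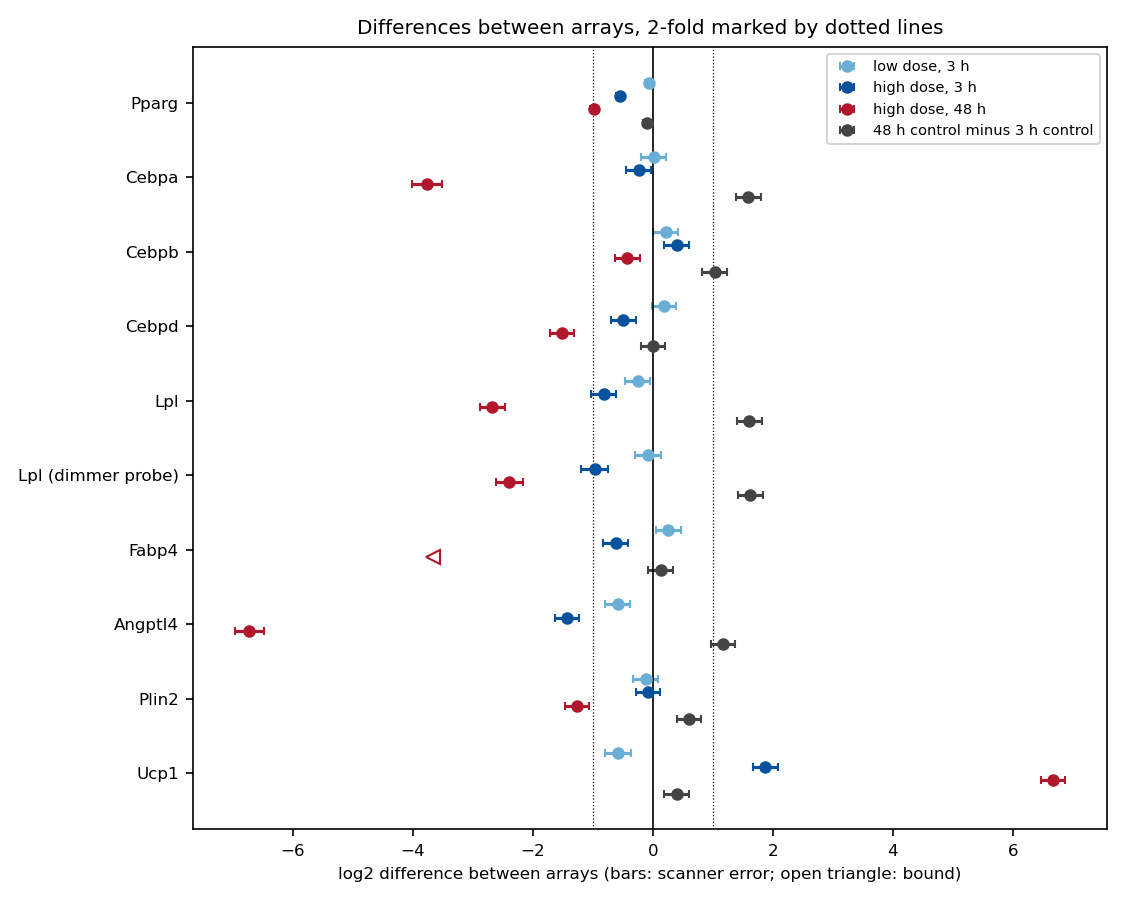
Log2 differences of 10 probes in 4 comparisons, with the scanner's error as bars, dotted lines at 2-fold and a triangle for the bound on Fabp4. Adipoq is left out because it was above background on 1 array. At 48 h (red) Angptl4 at -6.72 and Ucp1 at 6.67 lie at opposite ends, and the controls (dark grey) differ most for Lpl and Cebpa.

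To describe how alike the members were, profiles over the 5 arrays were set to their own mean and compared by the root mean square of their log2 distance. Pparg and Cebpd were 0.23 apart, Pparg and Plin2 0.29, and Cebpa and Lpl 0.57. Ucp1 lay at least 2.70 from every other member measured on all 5 arrays and furthest from Angptl4. Over the 13462 other genes measured on all arrays, the nearest profiles to Pparg were Tmem8b and Tbx6 at 0.06 each. Those nearest to Cebpa were Tlr4 at 0.17 and Slc13a3 at 0.18, to Cebpb Abcc4 at 0.04 and Tmem154 at 0.07, and to Cebpd Myh10 at 0.07 and Dnajc28 at 0.08. Lpl was nearest to Hspb2 at 0.16 and Cys1 at 0.24, and Plin2 to Tceal6 at 0.03 and Tceal3 at 0.05. Serpinb1a at 0.32 and Ifit3 at 0.41 were nearest to Angptl4, and Tnfaip8l2 and Mmel1 at 0.59 each to Ucp1. These distances grow with the span of a profile, so nearest distances are not compared between members.

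Other genes of the same pathways were read from 8 lists chosen by function. Of all genes, 1.85% were higher and 1.45% lower at 3 h on the high dose, and 0.789% and 0.583% on the low dose. Between the controls 2.50% were higher and 1.36% lower. Of 27 measured adipogenic transcription factors and coregulators, 2 were higher and 6 lower at 48 h on the high dose, with a median difference of -0.39, beside 9.94% and 10.1% of all genes and their median of 0.05. Ppard, the PPAR of wide tissue distribution, was higher by 1.73 and Klf5 by 1.18. Lowest were Zfp423, a factor that commits cells to the fat lineage, at -3.78 (its other probes gave -2.09 and -3.02), Klf15 at -2.15 and Zfp467 at -1.83 (its other probes gave -3.85, -1.02 and -3.67). Klf15 had also differed by 1.94 between the controls, and against the 3 h control the 48 h high dose values were -0.21 for Klf15 and 0.47 for Klf5, both under 2-fold. The partner receptor Rxra, at -0.37, Ppara, at 0.18, and Cebpg, at -0.39, were under 2-fold. Of 26 measured in the high dose comparison at 3 h, Zfp467 at -1.28 and Klf15 at -1.03 were lower and 0 were higher. The other probes of Zfp467 gave -0.25, -0.85 and -0.20 there, all under 2-fold, and the Klf15 call was lost under normexp, at -0.33. Egr2, an early factor of fat cell formation, was not above background on the 3 h control and was at least 14.5-fold higher on the high dose and at least 12.2-fold higher on the low dose at 3 h. That gene was picked out after its values were seen. Of the 26 measured on both arrays at the low dose 1 was called, Ppargc1b at -1.31, which was -0.68 against the 48 h control and -0.86 under normexp.

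Inhibitors of fat cell formation were also lower more often than higher at 48 h. Of 22 measured at 48 h, 2 were higher and 9 lower, with a median of -0.73. Over all genes 9.94% were higher and 10.1% lower, with a median of 0.05. Dlk1, the preadipocyte factor whose loss accompanies differentiation, was higher by 2.52 on its brighter probe and 2.64 on the other, and Inhba by 1.38. The lowest were Twist1 at -2.04, Klf2 at -2.04 and Wnt10b, a Wnt ligand that blocks fat cell formation, at -2.01. Under normexp Klf2 and Wnt10b came to -0.63 and -0.48. Dlk1 was 1.58 lower on the 48 h control than on the 3 h control, and against the 3 h control its difference was 0.94, under 2-fold. At 3 h the high dose called 1 of 23, Ddit3 at -1.02 (-0.55 against the 48 h control), and the low dose called 0 of 23. Between the controls Trib3 was higher by 1.21, and Dlk1, Gata2 at -1.41 and Twist2 at -1.02 were lower.

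Among lipid droplet and lipolysis genes at 48 h, 2 of 17 were higher and 5 lower, with a median of -0.10, where 9.94% and 10.1% of all genes were. Cidea, a droplet protein typical of brown fat, had levels of 3.22, 4.07 and 4.07 at 3 h (control, low dose, high dose), 4.03 on the 48 h control and 7.52 on the 48 h high dose array, 11.2-fold higher at 48 h. Plin4 had levels of 4.50, 4.11, 4.05, 5.13 and 0.56 in the same order, 23.8-fold lower at 48 h. So genes of the droplet surface differed in opposite directions on the 48 h high dose array. Dgat1, an enzyme of the last step of triglyceride synthesis, was higher by 1.43, while Dgat2, which catalyses the same step, was at -2.09. G0s2, an inhibitor of fat breakdown, was at -3.01. At 3 h on the high dose Gpam was higher by 1.05 and G0s2 was at -1.04, and on the low dose 0 of 17 were called. Gpam was under 2-fold against the 48 h control, at 0.40, and with quantile normalization, at 0.93. Fitm1, named after its values were seen, was above background on the 3 h control alone, which put it lower by at least 3.80 on the log2 scale on the high dose, at least 26.7-fold lower on the low dose and at least 13.5-fold lower on the 48 h control.

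Of 20 measured genes of fatty acid uptake and of the lipase's partners, 1 was higher and 2 lower at 48 h, with a median of -0.43, where 9.94% and 10.1% of all genes were. Acsl5, which activates fatty acids, was higher by 1.46, and Slc27a3, a transporter relative, and Lrp1, a lipoprotein receptor, were at -1.85 and -1.54, the last at -0.85 against the 3 h control. The fatty acid receptor Cd36, chosen after its values were seen, was above background on the 48 h high dose array alone, at least 5.16-fold higher than on the 48 h control. The list had 0 calls at 3 h on either dose and 0 between the controls. Of 10 measured adipokines and receptors, 2 were lower at 48 h, Nampt at -2.02 and Agt at -1.51, and 0 were higher, with 0 called at 3 h on either dose.

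The thermogenic and brown fat list was split at 48 h, with 4 of 15 measured genes higher and 4 lower and a median of -0.33. Of all genes 9.94% were higher and 10.1% lower. Besides Cidea, which is on the droplet list too, Bmp7, a signal that promotes brown fat, was higher by 2.97 and Dio2, the enzyme that activates thyroid hormone, by 1.67. Dio2 had been 1.30 lower on the 48 h control than on the 3 h control, and against the 3 h control the 48 h high dose difference was 0.37. Slc29a1 was at -3.25, Cox7a1, a respiratory chain subunit of muscle and brown fat, at -1.87 and Eva1a at -1.56 (-0.59 against the 3 h control). Against the 3 h control, 3 of 13 were higher and 2 lower, where 9.44% and 8.85% of all genes were. Prdm16, the factor that sets brown fat identity, was above background on the 3 h high dose array alone, and Elovl3 on none. Ppargc1a, the coactivator that induces Ucp1 in brown fat, had levels of 2.92, 2.79, 2.50, 2.37 and 1.79 at 3 h (control, low dose, high dose) and at 48 h (control, high dose), which is a difference of -0.59 at 48 h. The relatives Ucp2 and Ucp3 differed by -0.77 and -1.14 at 48 h, and the receptor gene Adrb3 by -0.33. Ucp2 and Ucp3 were below background on the 3 h control. Against it the 48 h high dose array was at least 1.69-fold higher for each, and the 48 h control at least 2.87-fold and 3.71-fold higher. So the sign for both genes turns on which control is used. The 3 h high dose called Tbx1, higher by 1.04, among 14 measured, and the low dose called 0 of 14. Tbx1 was as much higher on the 48 h control, by 1.05 against the 3 h control, and the 3 h high dose array differed from the 48 h control by -0.01.

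PPAR-responsive genes of fatty acid oxidation had 1 of 21 higher and 6 lower at 48 h, with a median of -0.59. Cpt1a, which admits fatty acids to mitochondria, was at -2.80 (-2.60 on its second probe), Pex11a at -2.42 and Acot1 at -2.24. Pdk4, a PPAR target that spares glucose and was chosen after its values were seen, was below background on the 48 h high dose array, at least 31.1-fold lower against the 48 h control and at least 16.3-fold lower against the 3 h control. At 3 h 0 of 22 were called on either dose. Fatty acid synthesis genes had 1 of 13 higher and 1 lower at 48 h, Fads2 at 1.91 and Acacb at -1.39, with a median of 0.30, where 9.94% and 10.1% of all genes were. Thrsp, a lipogenic gene of this list, lay just past the 2-fold limit at 3 h on the high dose, a call that median centring ended at -0.99. It differed by -1.40 on the low dose (-0.61 under normexp) and was at least 8.65-fold lower at 48 h.

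**Figure D3:**
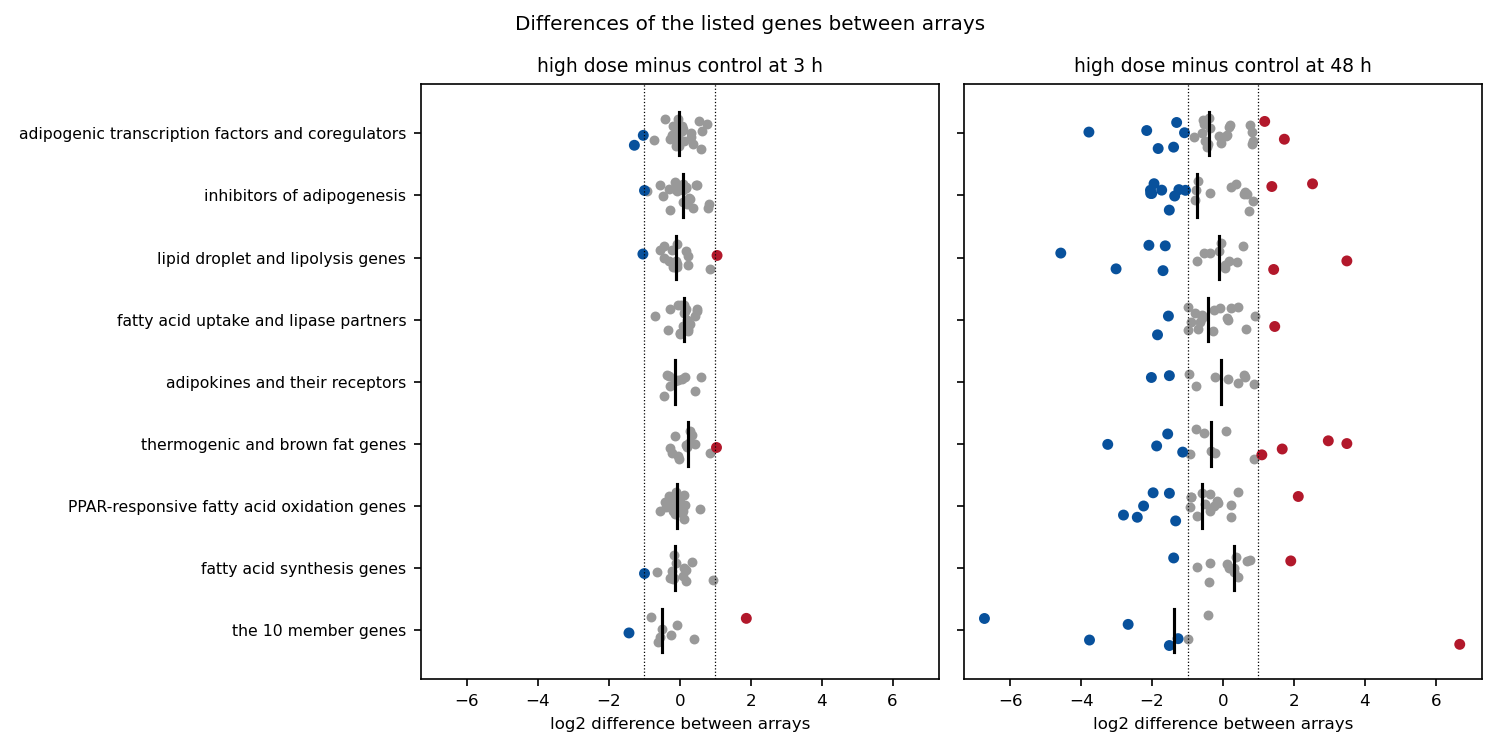
Log2 differences of the measured genes of the 8 pathway lists and of the member genes, high dose minus control at 3 h (left) and 48 h (right), 1 array per group. Points past 2-fold are red (higher) or blue (lower), the black bar is the list's median, and the member median of -1.39 at 48 h lies furthest from 0.

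Markers of cell types were read on all arrays to set the members beside the makeup of the samples. Of 9 markers of mature fat cells, between 2 and 5 per array were above background, and their summed signal, in units of the array's 75th percentile, ran from 0.502 on the 48 h high dose array to 0.873 on the 48 h control. Cidec, Cfd and Pck1 were below background on every array, and Plin1 was above it on the 48 h control alone. Lipe, the hormone-sensitive lipase, was above background on every array, with levels of -0.98, -0.94, -0.75, -0.65 and -2.27 at 3 h (control, low dose, high dose) and at 48 h (control, high dose), and was called lower at 48 h. Acvr1c was called higher at 48 h, by 1.51.

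Mesenchymal markers, on the contrary, were all above background on every array, 11 of 11. Their summed signal was between 129 and 142 on the first 4 arrays and 68.8 on the 48 h high dose array. There 8 of 11 were lower, beside 10.1% of all genes, with a median of -2.01. The lowest were Lum at -3.63, Col3a1 at -3.17 and Pdgfra at -2.89. The sum does not show the high dose at 3 h, where 2 of 11 were lower (Dcn at -1.20 and Col3a1 at -1.06), beside 1.45% of all genes. The list's median there was -0.45, beside the members' median of -0.49. Against the 48 h control Dcn was at -0.68. Twist1 is on this list and on that of the inhibitors. Most measured macrophage markers moved the other way at 48 h. Of 16, between 7 and 12 were above background, with a summed signal of 27.0, 28.5 and 28.1 at 3 h (control, low dose, high dose), 33.8 on the 48 h control and 63.6 on the 48 h high dose array. Itgam and Csf1r made up most of these sums. The large sum on the 48 h high dose array came mainly from Csf1r, at 5.30 there and 2.89 on the 48 h control. Itgam differed by -0.52 between those arrays. Of 7 measured on both arrays at 48 h, 5 were higher and 0 lower with a median of 1.96, where 9.94% and 10.1% of all genes were. Those higher were led by Cd5l at 5.40, Mpeg1 at 3.13 and Csf1r at 2.41 (0.55 and 3.38 on its other probes). Fcgr1, Cd163 and Mrc1 were below background on every array. In the high dose comparison at 3 h and in that of the controls, 1 of 7 measured macrophage markers was lower and 0 were higher. Of all genes 1.45% and 1.36% were lower there, and the list's medians were -0.26 and 0.26. Single markers differed in both directions, with Cd14 at 0.54 and 0.93, under 2-fold. Cd5l was 6.84-fold lower on the high dose than on the control at 3 h and 5.65-fold lower on the 48 h control than on the 3 h control. Tyrobp was at least 6.75-fold and at least 6.51-fold lower in the same comparisons, and Lyz2 and C1qc were below background on the 3 h high dose and 48 h control arrays. Angptl4, Lpl, Fabp4 and Plin2 are expressed by macrophages as well as fat cells, and the part of either marker list in the members' differences was not tested. Fewer cells of a type and less RNA per cell cannot be told apart in these bulk samples.

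Endothelial markers had 4 to 5 of 8 above background, with summed signals of 36.3, 27.7, 57.8, 54.5 and 187 in the order of arrays used above, the last mainly from Egfl7, which was higher by 1.88. Markers of neural crest and Schwann cells had 5 of 8 above background on each array and sums between 98.5 and 147. At 48 h 0 were higher and 2 lower, with Ngfr at -6.45, where 9.94% and 10.1% of all genes were. Melanocyte markers had 3 to 4 of 6 above background and 0 calls at 48 h. Skeletal muscle markers had 0 to 1 of 5 and epithelial markers 0 to 2 of 4 above background. Their part in the members' differences was not tested either.

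**Figure D4:**
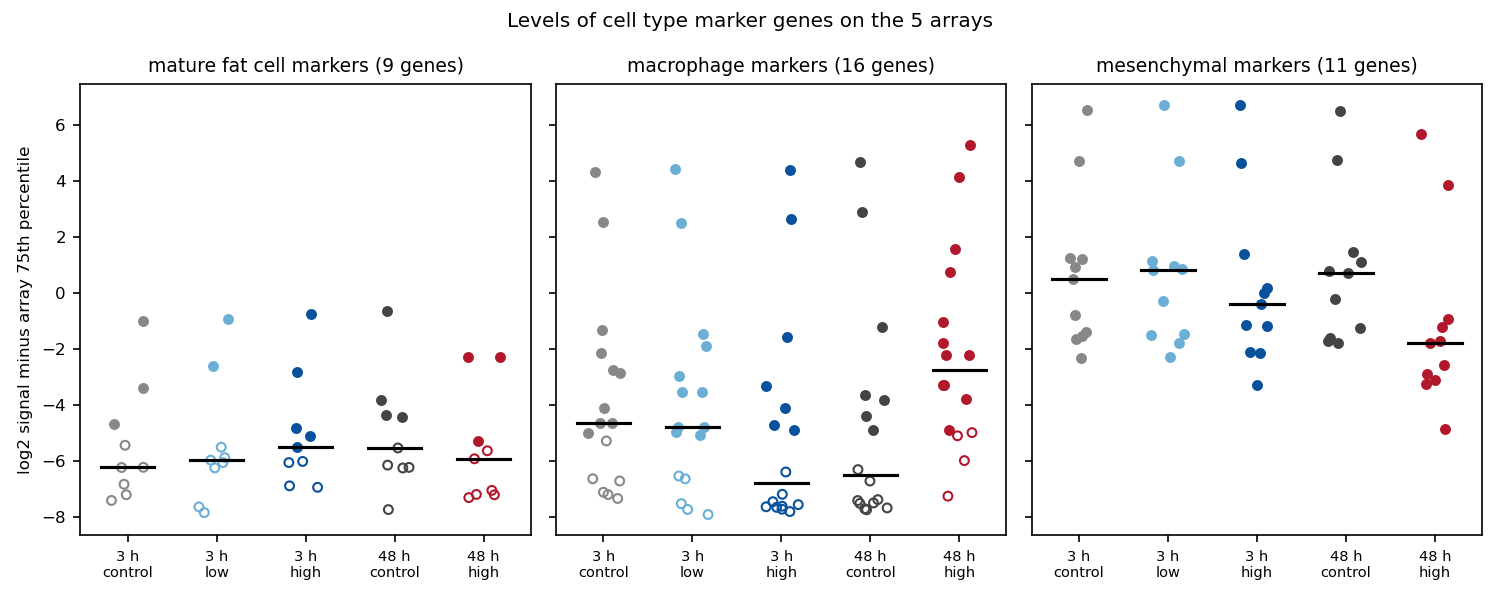
Levels of mature fat cell, macrophage and mesenchymal markers on the 5 arrays, as log2 signal minus the array's 75th percentile. Filled points are above background, open points are not, and the bar is the median of the list. On the 48 h high dose array most mesenchymal points lie lower and most macrophage points higher than on the other arrays. Most fat cell markers are near or below background on all 5.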

How the data were processed

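Total RNA of mouse tumour cell lines was labelled with Cy3 and hybridised to 5 one-colour Agilent arrays, per the labels' protocols. The deposited values are linear spot intensities from which the scanner software had taken background and a spatial trend, with no normalisation between arrays, per the file headers. The submitters' processing notes name Agilent Feature Extraction 10.7.3.1. All 5 arrays share 1 slide and 1 scan, per the file headers. The genome build of the array design is older than the RefSeq gene table used here (GRCm38.p6), so that table gave names only, and the promoter table of the same assembly gave the sequences.

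Each array had 59305 spots outside the controls, of which 111 to 146 were marked as outliers and left out, and none was saturated. Each log2 signal was set relative to the array's 75th percentile, then averaged over a probe's spots. Of 55681 probes 26413 were named, for 20018 genes. For the 5337 genes with several probes the brightest over the 5 arrays stood for the gene, and both Lpl probes are shown. A bound sets the brighter array against the lowest signal above background on the dim array, or against the probe's own signal where that is higher. Since some dim probes had higher signals than that lowest one, a bound written as "at least" follows this rule and is not a strict limit. The lowest signal was -6.44 on the low dose array and between -5.50 and -5.18 on the others, so bounds against the low dose array can come out larger. Samples were grouped by their titles. No test was made because each group is 1 array, and the number of arrays limits the precision. The count of value columns without a sample was 0.

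The member genes and all 16 gene lists were chosen with earlier results of these data known. Of each list, up to 3 genes higher and 3 lower with the largest differences past 2-fold were named, and for each member measured on all 5 arrays with a span of at least 1 the 2 nearest profiles. A few genes that this rule names are not reported here. Alternatives were median centring, quantile normalization, normexp background correction with an offset of 50, no filter on dim probes, the deposited value table, the mean over probes and the other control array. Normexp was planned on the mean spot signal and was run on the median spot signal, which is the column these files hold, a choice made after seeing the data. The deposited value table holds the same linear intensity. On the 3 h low dose array its log2 values lay within 0.01 of the scanner signal for 99.8% of probes. The calling of differences was tried on simulated data with preset changes larger than 2-fold. The simulated noise was not taken from replicate cultures, so it does not show whether calls would repeat. Python 3.11.15, numpy 2.4.6, pandas 2.3.3, matplotlib 3.10.9, R 4.3.3 and limma 3.58.1 were used.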

Additional observations from a re-analysis of the deposited data

How the results depend on the processing

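Of the 17 member differences past 2-fold, all kept their sign under the alternatives run for them. All 17 stayed past 2-fold under median centring and quantile normalization, and 16 under normexp, where Cebpa between the high dose arrays came to -0.91. All 17 also did with the deposited value table, the mean over probes and no filter on dim probes, which could hardly change them. That table holds the same intensity, only Lpl had more than 1 probe, and all 17 had already passed the filter. Normexp, which adds an offset, also gave -2.44 for Cebpa and -5.28 for Angptl4 at 48 h. With the 48 h control in place of the 3 h control, the count of members called was 4 for the high dose at 3 h (2 with its own control) and 3 for the low dose (0 with its own control). With the 3 h control at 48 h, 6 members were called, Pparg in place of Plin2. Over all genes the normexp counts were 217, 97, 127 and 287, against 462, 193, 313 and 542, for high dose, low dose and high against low dose at 3 h and for the controls. Without the filter on dim probes the same 4 comparisons gave 1360, 820, 1228 and 1361, the high dose at 48 h gave 4471 against 2749, and the high dose arrays of 48 h and 3 h gave 4008 against 2417. List counts changed too, given here with the count from each one's own control in parentheses. For the high dose at 3 h against the 48 h control they included 4 factors (2), 4 inhibitors (1), 4 thermogenic genes (1) and 1 oxidation gene (0). Lipid droplet genes had 0 higher and 3 lower there (1 and 1), and mesenchymal markers 3 lower (2). At 48 h against the 3 h control the thermogenic count was 5 (8). Factors had 3 higher and 6 lower there (2 and 6), and macrophage markers 7 of 10 higher (5 of 7). Of 42 differences of named list genes at 48 h, 38 stayed past 2-fold under normexp and 36 against the 3 h control, and of 11 for the high dose at 3 h, 3 and 5 did with normexp and the 48 h control. No paired analysis was possible because each group holds 1 array. Adipoq and, on the 48 h high dose array, Fabp4 are limited by signal near background.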

Other observations

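The genes next to the members on the genome, taken from the order in the RefSeq table and chosen after the members' values were seen, gave 17 of 20 measured neighbours in the high dose comparison at 48 h, of which 3 were past 2-fold (Tmem189 at 1.27, Haus6 at 1.52 and Rfc4 at 1.35), where 20.0% of all genes were. Beside Ucp1, which was 102-fold higher, Tbc1d9 differed by -0.05 and Elmod2 by -0.11 at 48 h. Beside Angptl4, which was 106-fold lower, Rab11b differed by -0.55 and Kank3 by -0.09 at 48 h, while Kank3 differed by -1.09 at 3 h on the high dose and by -0.87 on the low dose.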
